A study of Sus scrofa with 32 samples.

Results

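The genes described here are the cytokines, chemokines and their receptors of pig loin muscle, a family of 97 genes of the 17930 listed in the deposited files. Members were chosen by symbol alone: interleukins and their receptors, CC and CXC chemokines and their receptors, Toll-like receptors, the tumour necrosis factor (TNF) ligand and receptor superfamilies, colony stimulating factors and the suppressors of cytokine signalling (SOCS). No measured value enters that rule, although it was set with earlier results of these data known. After a filter on low counts 51 of the 97 members could be tested, and 46 could not.

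RNA was sequenced from the longissimus dorsi of 32 wild-type pigs aged 6 months, with 8 pigs in each of 4 breed groups whose surroundings and feed were alike. Landrace (L) is a lean commercial breed and Dapulian (DPL) a native breed of China. LDPL pigs came from crossing Landrace x Dapulian, and DLDPL pigs from Duroc x Landrace x Dapulian. The question is how muscle transcripts differ between these breeds.

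Cytokines and chemokines are small secreted proteins by which cells signal inflammation, growth and repair, and chemokines also steer the migration of white blood cells. Interleukin receptors of the haematopoietin class signal through Janus kinases and STAT factors, whereas Toll-like, interleukin-1 and many TNF receptors signal through the NF-kappaB factors, and SOCS proteins damp the Janus kinase route. In muscle these proteins come from resident macrophages, vessels and connective tissue and also from the fibres themselves, which release some interleukins during contraction.

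Each file listed 14241 to 15664 genes from 21.7 to 29.7 megareads that mapped uniquely, and members took 0.044% of all reads. The 4 muscle fibre markers found by symbol summed to 39736 to 128151 CPM for L, 41090.5 to 92802 for DPL, 66956 to 100772 for LDPL and 52281 to 94419.9 for DLDPL (CPM, read counts scaled to library sizes adjusted by TMM), so every library carried the labelled tissue. On the first principal component, which held 22.6% of the variance, the 8 L libraries lay apart from the 24 others, and their replicate numbers form a separate series. In comparisons with L, a separate handling of these pigs and their breed therefore cannot be told apart. Mitochondrially encoded genes took 31.3 ± 5.6% of reads in DPL, 22.9 ± 4.4% in LDPL, 22.7 ± 4.9% in DLDPL and 20.8 ± 2.6% in L (SD, n = 8), and the part of this share in the results was not tested. In bulk muscle, fewer cells of a type and less RNA per cell cannot be told apart.

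Most of the family was scarce. On the RPKM scale, which divides reads by gene length and by library size and so allows levels to be compared between genes, 5 members had a mean of at least 10 over the 32 libraries, 25 had at least 1 and 35 were under 0.1. TNFRSF12A, the receptor for the cytokine TWEAK, had the highest mean at 46.0 RPKM, with libraries from 8.00 to 111. CCL5, a chemokine that attracts T cells and macrophages, followed at 37.5 RPKM, but its reads covered a median of 24.1% of its listed length (6.0 to 42.47% over libraries). Among the 1734 genes with a similar number of reads the median was 95.3%, and 0.115% of them lay lower than CCL5, so its level per length is uncertain. The other 3 genes above 10 RPKM were IL13RA1, a chain of the interleukin-4 and interleukin-13 receptor, at 19.0, IL6ST, the gp130 chain shared by interleukin-6 type cytokines, at 14.1, and CCL2, the chemokine that recruits monocytes, at 10.3. Interleukins themselves were low, and IL18, which had the highest mean of the 15, was at 4.02 RPKM. The highest members of a further 4 role groups were SOCS5 at 4.21, the macrophage growth factor receptor CSF1R at 2.54, TLR2 at 0.741 and the TNF ligand TNFSF18 at 0.308 RPKM.

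**Figure D1:**
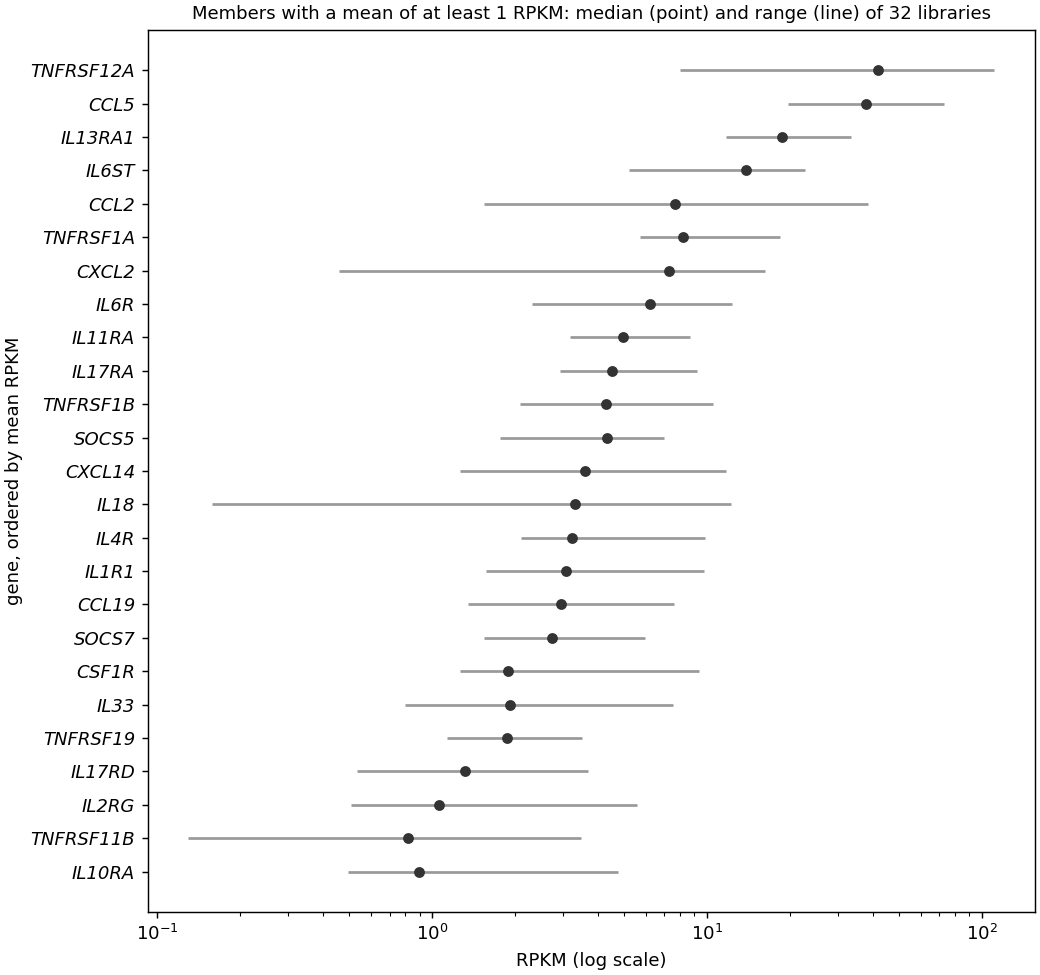
Mean-ordered RPKM of the 25 members with a mean of at least 1 RPKM, on a log axis. Points are medians and lines the range of 32 libraries. TNFRSF12A and CCL5 have the highest means, at 46.0 and 37.5 RPKM, and CXCL2, CCL2, IL18 and TNFRSF12A have wide ranges.

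Counts were compared between groups with edgeR's quasi-likelihood test on all 12821 genes that passed the filter, and a gene was called at a Benjamini-Hochberg adjusted p under 0.05. Tested over the 4 groups at once, 16 of the 51 members were called, where 37.4% of all genes were. In DPL against L 11 members were higher and 9 lower, beside 19.1% of all genes higher and 18.9% lower. In LDPL against L the counts were 8 higher and 7 lower, beside 14.9% and 14.7% of all genes. In DLDPL against L they were 9 higher and 4 lower, beside 11.6% and 10.3%. These counts lie near the shares of all genes and are no result about the family as a whole. The median log2 change of the members was -0.06, -0.06 and -0.01 in these comparisons, against -0.02, -0.03 and -0.02 over all genes. All 3 comparisons use the same L libraries and are not independent of each other. For DPL against L the split over all genes, 2455 higher and 2418 lower, became 1277 higher and 3412 lower with limma on log2(RPKM + 1), which shifts the median gene by -0.12, while the members split 9 higher and 10 lower there.

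Far fewer genes separated the 3 groups other than L. In LDPL against DPL edgeR called 2 members higher and 0 lower, beside 1.29% of all genes higher and 1.56% lower. At an unadjusted p under 0.05 there were 3 members lower in LDPL, while DESeq2 called 0 lower and voom 1. In DLDPL against DPL edgeR called 3 members higher and 0 lower, beside 1.98% and 2.12%, with 2 lower at an unadjusted p under 0.05 and 0 by DESeq2 or voom. In DLDPL against LDPL edgeR called 0 members in either direction, beside 0% of all genes in each (969 of 12821 genes at an unadjusted p under 0.05, and 33 called by DESeq2 and 1 by voom). At an unadjusted p under 0.05 edgeR had 2 members there, TLR5 with a log2 change of 0.93 and TNFRSF1A with -0.43, and DESeq2 called 0 with 2 at an unadjusted p under 0.05.

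**Figure D2:**
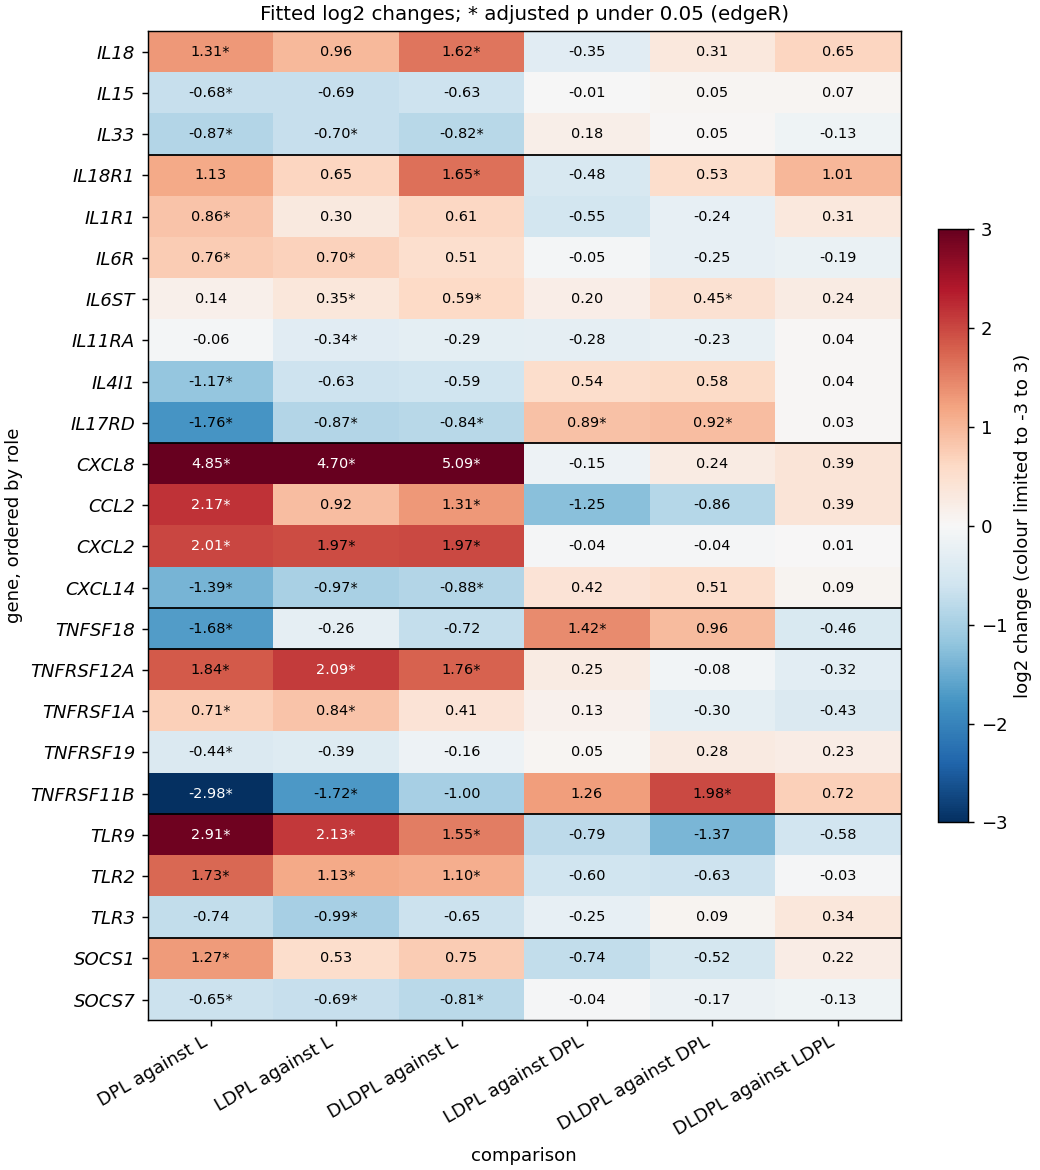
Fitted log2 changes of the 24 members called in at least 1 of the 6 comparisons (columns), ordered by role (rows separated by lines). Red is higher and blue lower in the first-named group, and an asterisk marks an adjusted p under 0.05. Values run from 5.09 for CXCL8 in DLDPL against L to -2.98 for TNFRSF11B in DPL against L, and the last column has no asterisk.

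The chemokines included the largest changes of the family. CXCL8 (ENSSSCG00000008953), which encodes interleukin-8, the main attractant of neutrophils, was nearly silent in L. It ranged from 0 to 0.0720 CPM in L (median 0), 0.354 to 1.17 in DPL (median 0.608), 0.0413 to 1.29 in LDPL (median 0.393) and 0 to 1.25 in DLDPL (median 0.813). Over the 8 L libraries 4 reads fell on it, all in L replicates 5 and 7, against 128 reads in DPL, 116 in LDPL and 163 in DLDPL. Every DPL library was above every L library, 7 of 8 were in LDPL and in DLDPL, and the exception in DLDPL was replicate 18 with 0 reads. The ratio of pooled reads to L was 36.2 in DPL (95% exact binomial interval 13.8 to 135), 32.8 in LDPL (12.5 to 122) and 44.0 in DLDPL (16.9 to 163), where the intervals cover counting error only. CXCL8 was called higher in DPL (log2 change 4.85 ± 0.76, adjusted p = 7.57e-06), in LDPL (log2 change 4.70 ± 0.77, adjusted p = 2.26e-05) and in DLDPL (log2 change 5.09 ± 0.76, adjusted p = 1.02e-05). For every log2 change the value after ± is the standard error, with n = 8 per group. CXCL8 passed the low-count filter through libraries of the other 3 groups alone, since 0 L libraries reached it, so a difference from L was built into its being tested.

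CXCL2 (ENSSSCG00000008959), another neutrophil chemokine, ranged from 0.500 to 7.19 CPM in L (median 1.58), 6.34 to 17.2 in DPL (median 8.69), 5.08 to 14.3 in LDPL (median 10.5) and 1.01 to 18.5 in DLDPL (median 10.2). L replicate 10, at 7.19 CPM, reached into the range of each other group, and L replicate 5, at 5.37, into that of LDPL but not of DPL. DLDPL replicate 18, at 1.01, lay within the range of L, and the other DLDPL libraries were at 6.31 to 18.5. It was higher in DPL (log2 change 2.01 ± 0.42, adjusted p = 0.000272), in LDPL (log2 change 1.97 ± 0.42, adjusted p = 0.000536) and in DLDPL (log2 change 1.97 ± 0.42, adjusted p = 0.000826). CXCL2 belongs to a cluster of closely related genes, so reads that do not map uniquely could be missing from its count, and its level is uncertain. CCL2 (ENSSSCG00000017723) ranged from 1.32 to 6.81 CPM in L (median 2.58), 5.63 to 23.4 in DPL (median 13.9), 2.07 to 13.8 in LDPL (median 4.75) and 2.60 to 25.3 in DLDPL (median 6.75). In DPL 7 of 8 libraries were above all L libraries, whereas in LDPL and DLDPL the ranges overlapped L widely. CCL2 was higher in DPL (log2 change 2.17 ± 0.43, adjusted p = 0.000187) and in DLDPL (log2 change 1.31 ± 0.43, adjusted p = 0.0253), and in LDPL it did not pass (log2 change 0.92 ± 0.43, adjusted p = 0.101). The call in DLDPL rested on single libraries: without DLDPL replicate 28, at 25.3 CPM, the log2 change was 0.79 (adjusted p = 0.151), and without L replicate 1 or 8 the adjusted p was 0.0534 or 0.0505. It was also lost with limma on log2(RPKM + 1) and log2(RPKM + 0.1) (adjusted p of 0.0692 and 0.0574).

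CXCL14 (ENSSSCG00000014310), a chemokine made by healthy tissue rather than on inflammation, went the other way. Its values ranged from 6.16 to 19.4 CPM in L (median 11.2), 2.27 to 8.23 in DPL (median 3.96), 4.56 to 7.20 in LDPL (median 6.13) and 3.37 to 9.82 in DLDPL (median 6.05). The highest L library was above every library of the other groups, and the lowest L library fell within them. CXCL14 was lower in DPL (log2 change -1.39 ± 0.24, adjusted p = 3.7e-05), in LDPL (log2 change -0.97 ± 0.24, adjusted p = 0.00263) and in DLDPL (log2 change -0.88 ± 0.24, adjusted p = 0.0078). CCL5, the most abundant chemokine, had medians of 56.0 CPM (L), 75.3 (DPL), 71.0 (LDPL) and 72.8 (DLDPL) and did not pass in DPL (log2 change 0.39 ± 0.16, adjusted p = 0.0538). This value lay at the threshold: it was called with RLE scaling, DESeq2 or the mitochondrial genes left out (adjusted p of 0.0394 to 0.0474), and without L replicate 1 or 2, DPL replicate 7, 26 or 30 or LDPL replicate 4 or 5 (0.0165 to 0.0496).

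**Figure D3:**
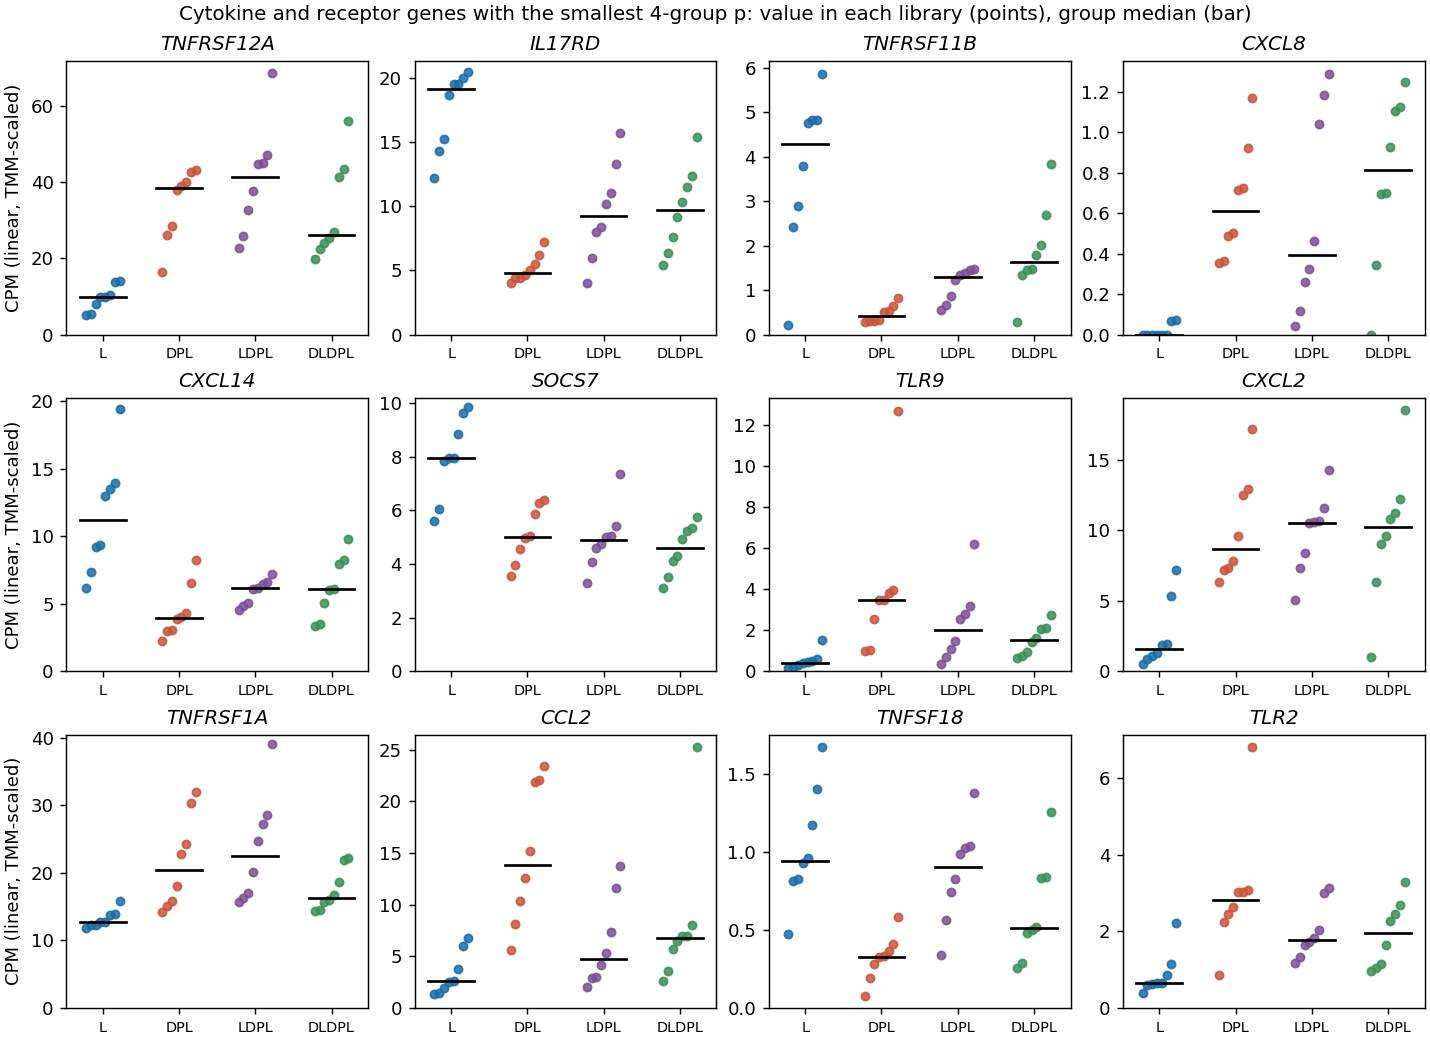
CPM in each library (points) of the 12 members with the smallest p of the 4-group test, with group medians as bars and linear axes from 0. TNFRSF12A lies at or above 16.5 CPM in every library of DPL, LDPL and DLDPL and at or below 14.1 in L. IL17RD in L lies above every DPL library.

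The same libraries differed in stress and immediate early genes, which cells switch on within minutes of a stimulus. In DPL against L 12 of 13 tested genes of this list were called, all of them higher, as were 11 in LDPL and 12 in DLDPL against L, where 19.1%, 14.9% and 11.6% of all genes were higher. The list was chosen with earlier results of these data known, so these counts are a description and no independent test. Their summed level ranged from 93.8 to 372 CPM for L, 1334 to 4062 for DPL, 925 to 2097 for LDPL and 178 to 2805 for DLDPL. DLDPL replicate 18 had no CXCL8 read and the lowest CXCL2 and CCL2 values of its group. It was also the lowest of its group for this sum, at 178 CPM against 980 to 2805 in the other 7. Its TNFRSF12A value, 27.1 CPM, lay inside the range of the other DLDPL libraries. In DPL, replicate 30 had the lowest sum, 1334 CPM, and replicate 11 the highest, 4062. CXCL2 was at 12.97 CPM in replicate 30 and 7.31 in replicate 11, whereas CXCL8 was at 0.502 and 0.714. NR4A3, a nuclear receptor induced by stimulation, was the gene of the list with the smallest adjusted p in DPL against L (log2 change 7.32 ± 0.62, adjusted p = 1.54e-10), followed by ATF3, KLF4 and MYC at 5.75, 2.58 and 3.36. With DLDPL replicate 18 left out, the log2 change in DLDPL against L was 5.28 for CXCL8 and 2.15 for CXCL2. The part of this list in the chemokine results was not tested.

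**Figure D4:**
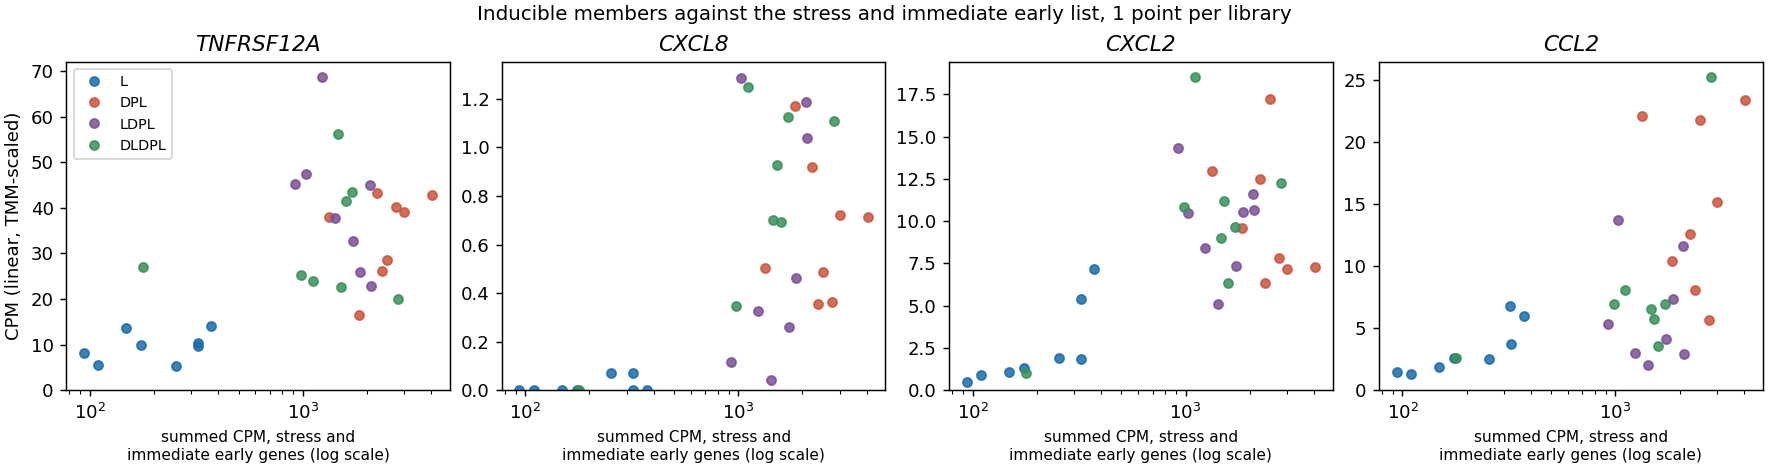
CPM of 4 members (linear vertical axes) against the summed CPM of the stress and immediate early list (log horizontal axis), with 1 point per library coloured by breed group. The 8 L libraries lie between 93.8 and 372 on the horizontal axis, and 1 DLDPL library, at 178, lies among them.

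Of the 15 interleukins 6 were tested and 3 were called in at least 1 comparison, where 47.2% of all genes were. IL18, a cytokine of macrophages that induces interferon-gamma, ranged from 0.155 to 5.83 CPM in L (median 1.19), 1.88 to 7.99 in DPL (median 3.63), 1.66 to 6.15 in LDPL (median 2.71) and 1.60 to 8.98 in DLDPL (median 5.13). L replicate 2, at 5.83 CPM, lay inside the range of the other groups, while the L median was below the minimum of each of them. It was higher in DPL (log2 change 1.31 ± 0.43, adjusted p = 0.0166) and DLDPL (log2 change 1.62 ± 0.43, adjusted p = 0.00692), and did not pass in LDPL (log2 change 0.96 ± 0.43, adjusted p = 0.0919). IL33, an alarm cytokine held in the nucleus of vessel and connective tissue cells, ranged from 5.76 to 17.4 CPM in L (median 11.1), 2.81 to 7.86 in DPL (median 6.24), 3.45 to 11.1 in LDPL (median 5.94) and 3.20 to 8.12 in DLDPL (median 6.17). It was lower in DPL (log2 change -0.87 ± 0.23, adjusted p = 0.00327), LDPL (log2 change -0.70 ± 0.23, adjusted p = 0.0215) and DLDPL (log2 change -0.82 ± 0.23, adjusted p = 0.00931), with all ranges overlapping. Without L replicate 2, the highest L library, the LDPL call was lost (log2 change -0.57, adjusted p = 0.0585). IL15, a muscle-derived cytokine that sustains natural killer cells, was lower in DPL at 1.51 ± 0.42 CPM against 2.40 ± 0.95 in L (SD, log2 change -0.68 ± 0.27, adjusted p = 0.0467). This call lay at the threshold: it was lost on leaving out any of 18 libraries, namely L replicates 2, 5, 7, 9 and 10, DPL replicates 7, 11, 19, 21 and 26, LDPL replicates 5, 8, 10 and 14 and DLDPL replicates 6, 20, 25 and 27, with an adjusted p of 0.0503 to 0.127, and with RLE scaling, no filter or voom (0.0502 to 0.063). IL6, the best known cytokine released by working muscle, was under the filter and was not tested.

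Among interleukin receptors and related genes 17 of 30 were tested, and IL17RD (ENSSSCG00000011463) had the smallest p. It encodes a membrane protein related to the interleukin-17 receptor that also damps fibroblast growth factor signalling. Its values ranged from 12.2 to 20.5 CPM in L (median 19.1), 4.06 to 7.19 in DPL (median 4.81), 4.01 to 15.8 in LDPL (median 9.28) and 5.46 to 15.4 in DLDPL (median 9.73). All 8 DPL libraries were below all 8 L libraries, as were 6 of 8 in LDPL and 6 of 8 in DLDPL. IL17RD was lower in DPL (log2 change -1.76 ± 0.22, adjusted p = 1.41e-07), LDPL (log2 change -0.87 ± 0.21, adjusted p = 0.00191) and DLDPL (log2 change -0.84 ± 0.21, adjusted p = 0.00366). It was also 1 of the few members that differed among the other groups, being higher than in DPL in LDPL (log2 change 0.89 ± 0.21, adjusted p = 0.0208) and in DLDPL (log2 change 0.92 ± 0.21, adjusted p = 0.0108). Both crosses had means, 9.58 ± 3.83 and 9.78 ± 3.31 CPM, that differed from L at 17.5 ± 3.13 and from DPL at 5.17 ± 1.07 (SD, n = 8). Without LDPL replicate 5, the call against DPL in LDPL was lost (log2 change 0.75, adjusted p = 0.0602), as it was with limma on log2(RPKM + 1) and with voom (adjusted p of 0.0802 and 0.0789).

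Both chains of the interleukin-6 receptor had calls. IL6R, the binding chain, ranged from 11.0 to 33.3 CPM in L (median 22.1), 24.2 to 56.3 in DPL (median 33.3), 17.1 to 56.0 in LDPL (median 32.7) and 21.2 to 40.8 in DLDPL (median 30.3). It was higher in DPL (log2 change 0.76 ± 0.23, adjusted p = 0.00821) and LDPL (log2 change 0.70 ± 0.23, adjusted p = 0.018) and did not pass in DLDPL (log2 change 0.51 ± 0.22, adjusted p = 0.105). Without LDPL replicate 9 the LDPL value was 0.57 (adjusted p = 0.0568), and limma on log2(RPKM + 1) gave an adjusted p of 0.0502. IL6ST, the signalling chain, ranged from 28.3 to 40.7 CPM in L (median 33.7), 20.5 to 50.1 in DPL (median 40.0), 35.0 to 49.9 in LDPL (median 44.3) and 37.9 to 67.8 in DLDPL (median 50.1). It was higher than in L in DLDPL (log2 change 0.59 ± 0.13, adjusted p = 0.00099) and LDPL (log2 change 0.35 ± 0.13, adjusted p = 0.0361), and higher in DLDPL than in DPL (log2 change 0.45 ± 0.13, adjusted p = 0.0377). In DPL against L it did not pass (log2 change 0.14 ± 0.13, adjusted p = 0.393), and DPL replicate 23, at 20.5 CPM, was far below the other 7 DPL libraries, at 34.2 to 50.1. The LDPL call was lost without L replicate 1, 4, 7 or 8 or LDPL replicate 9, 10 or 14 (adjusted p of 0.0574 to 0.0730), and the call against DPL without DLDPL replicate 18 or 32 or DPL replicate 19, 21 or 23 (0.0594 to 0.0944). The former was also lost with limma at both pseudocounts (adjusted p of 0.198 and 0.204), and the latter with no filter, voom or a fit of these 2 groups only (0.0557 to 0.116).

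Further calls in this role group concerned 4 genes. IL1R1, the signalling receptor of interleukin-1, was higher in DPL (log2 change 0.86 ± 0.27, adjusted p = 0.0136), but the median was 9.89 CPM there and 9.12 in L. Without DPL replicate 11 or 16 the adjusted p was 0.0606 or 0.0524, and limma and voom gave 0.126 to 0.227. IL4I1, which has an interleukin name but encodes a secreted amino acid oxidase, was lower in DPL at 0.426 ± 0.299 CPM against 0.944 ± 0.447 in L (SD, log2 change -1.17 ± 0.36, adjusted p = 0.0103). IL11RA, the interleukin-11 receptor, was lower in LDPL (log2 change -0.34 ± 0.12, adjusted p = 0.0363), at 14.5 ± 3.08 against 18.3 ± 1.60 CPM (SD). That call was lost without L replicate 2, 4 or 7 or LDPL replicate 4, 5, 8, 10 or 14 (adjusted p of 0.0520 to 0.0806), and with no filter (0.0646). Its reads covered a median of 49.3% of its listed length. IL18R1, the binding chain of the interleukin-18 receptor, was higher in DLDPL (log2 change 1.65 ± 0.58, adjusted p = 0.037), where DLDPL replicate 28 reached 2.39 CPM against a group median of 0.385. Without that library the log2 change was 0.86 (adjusted p = 0.267), and the call was also lost without DLDPL replicate 27 or 29 or L replicate 1, 5, 7, 8, 9 or 10 (adjusted p of 0.0505 to 0.0713). With limma at both pseudocounts and with voom the log2 change was 0.23 to 0.80 (adjusted p of 0.176 to 0.329). IL18R1 met the low-count filter only with the libraries of DPL and of DLDPL counted, 3 and 4 of the 10 that reached it, so a high value in DLDPL was part of its being tested. IL13RA1, the most abundant of the 30, did not pass in DPL against L (log2 change 0.22 ± 0.15, adjusted p = 0.255).

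TNF receptors held the most abundant member, and 4 of the 6 tested were called in at least 1 comparison, where 47.2% of all genes were. TNFRSF12A (ENSSSCG00000027130), which encodes Fn14 and is known to be induced in injured muscle, ranged from 5.22 to 14.1 CPM in L (median 9.85), 16.5 to 43.3 in DPL (median 38.5), 22.8 to 68.8 in LDPL (median 41.4) and 20.0 to 56.1 in DLDPL (median 26.2). Each library of DPL, LDPL and DLDPL was above each L library. It was higher in DPL (log2 change 1.84 ± 0.25, adjusted p = 5.58e-07), LDPL (log2 change 2.09 ± 0.25, adjusted p = 1.64e-07) and DLDPL (log2 change 1.76 ± 0.25, adjusted p = 4.12e-06), and it had the smallest 4-group p of the family (adjusted p = 5.38e-07). TNFRSF1A (ENSSSCG00000000708), the main receptor for TNF itself, ranged from 11.8 to 15.8 CPM in L (median 12.7), 14.3 to 32.0 in DPL (median 20.4), 15.7 to 39.1 in LDPL (median 22.4) and 14.3 to 22.2 in DLDPL (median 16.3). Here 5 of 8 DPL and 7 of 8 LDPL libraries were above all L libraries. TNFRSF1A was higher in DPL (log2 change 0.71 ± 0.17, adjusted p = 0.00153) and in LDPL (log2 change 0.84 ± 0.17, adjusted p = 0.000405), and it did not pass in DLDPL (log2 change 0.41 ± 0.17, adjusted p = 0.0849).

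TNFRSF11B (ENSSSCG00000027762) encodes osteoprotegerin, a soluble decoy for the ligand RANKL. It ranged from 0.214 to 5.86 CPM in L (median 4.28), 0.272 to 0.825 in DPL (median 0.415), 0.552 to 1.48 in LDPL (median 1.28) and 0.278 to 3.84 in DLDPL (median 1.63). L replicate 1, at 0.214 CPM, was below every library of the other groups, while the other 7 L libraries, at 2.41 to 5.86, were above every DPL and LDPL library. TNFRSF11B was lower in DPL (log2 change -2.98 ± 0.42, adjusted p = 1.5e-06) and LDPL (log2 change -1.72 ± 0.39, adjusted p = 0.00111), did not pass in DLDPL (log2 change -1.0 ± 0.38, adjusted p = 0.0543), and was higher in DLDPL than in DPL (log2 change 1.98 ± 0.42, adjusted p = 0.00565). With voom and sample weights that last value was 1.87 (adjusted p = 0.229). Reads covered a median of 33.9% of its listed length. TNFSF18 (ENSSSCG00000015487), the only TNF ligand of 5 to be tested, encodes the ligand of GITR, a receptor on T cells. It ranged from 0.474 to 1.68 CPM in L (median 0.946), 0.0750 to 0.585 in DPL (median 0.330), 0.339 to 1.38 in LDPL (median 0.906) and 0.259 to 1.26 in DLDPL (median 0.512). In DPL 7 of 8 libraries were below all L libraries, whereas LDPL and L covered much the same range. It was lower in DPL than in L (log2 change -1.68 ± 0.34, adjusted p = 0.000222) and than in LDPL (log2 change 1.42 ± 0.34, adjusted p = 0.0225 for LDPL against DPL). Without LDPL replicate 10 the last call was lost (log2 change 1.29, adjusted p = 0.0561), as it was with limma on log2(RPKM + 1) and with voom (adjusted p of 0.0587 and 0.075). TNFRSF19, an orphan receptor of progenitor cells, was lower in DPL (log2 change -0.44 ± 0.15, adjusted p = 0.0238), and without L replicate 1 or DPL replicate 26 or 30 the adjusted p was 0.0637, 0.0528 and 0.0528.

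Toll-like receptors, which sense microbial and damage products, all had means under 1 RPKM, and 3 of 8 tested were called in at least 1 comparison, beside 47.2% of all genes. TLR9 (ENSSSCG00000011436), a receptor for unmethylated DNA, ranged from 0.155 to 1.51 CPM in L (median 0.423), 1.0 to 12.7 in DPL (median 3.46), 0.343 to 6.20 in LDPL (median 2.02) and 0.640 to 2.72 in DLDPL (median 1.52). DPL replicate 16 was highest at 12.7 CPM, and 6 of 8 DPL libraries were above all L libraries. TLR9 was higher in DPL (log2 change 2.91 ± 0.53, adjusted p = 5.15e-05), LDPL (log2 change 2.13 ± 0.52, adjusted p = 0.00237) and DLDPL (log2 change 1.55 ± 0.52, adjusted p = 0.0316). The DLDPL call was lost without L replicate 4, 5, 7 or 8 or DLDPL replicate 6, 20 or 28 (adjusted p of 0.0525 to 0.0666), and with limma at both pseudocounts (0.245 and 0.06). The LDPL call was lost with limma on log2(RPKM + 1) (adjusted p = 0.0585). TLR2 (ENSSSCG00000009002), a receptor for bacterial lipoproteins, ranged from 0.387 to 2.21 CPM in L (median 0.648), 0.863 to 6.81 in DPL (median 2.83), 1.18 to 3.12 in LDPL (median 1.78) and 0.960 to 3.29 in DLDPL (median 1.96). L replicate 2, at 2.21 CPM, was the highest of L, and 7 of 8 DPL libraries were above it. TLR2 was higher in DPL (log2 change 1.73 ± 0.34, adjusted p = 0.000153), LDPL (log2 change 1.13 ± 0.34, adjusted p = 0.0117) and DLDPL (log2 change 1.10 ± 0.34, adjusted p = 0.0187). With limma on log2(RPKM + 1) the LDPL and DLDPL calls were lost (log2 changes 0.35 and 0.36, adjusted p of 0.0676 and 0.0838). TLR3, a receptor for double-stranded RNA, was lower in LDPL at 1.28 ± 0.51 CPM against 2.54 ± 0.69 in L (SD, log2 change -0.99 ± 0.33, adjusted p = 0.0209), and its values in DPL and DLDPL did not pass (log2 changes -0.74 and -0.65). TLR1, TLR6 and TLR10 are near-identical in parts, so reads from those parts may not map uniquely and could be missing from their counts.

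Macrophages carry many of these receptors, and the calls of their markers moved with 1 library. With all libraries 0 of 9 tested markers were called by edgeR in any of the 6 comparisons, 0 had an unadjusted p under 0.05, and DESeq2 called 0. Without L replicate 2, 5 of the 9 were higher in DPL, 4 in LDPL and 3 in DLDPL against L, where 18.6%, 14.4% and 11.7% of all genes were. With voom and sample weights 1, 2 and 1 were higher in DPL, LDPL and DLDPL against L. Each of the 9 had reads in every group. The summed level ranged from 17.9 to 163 CPM for L, 38.0 to 105 for DPL, 33.4 to 113 for LDPL and 32.0 to 69.5 for DLDPL. The spread within groups was wide: L replicate 2 was at 163 CPM against 17.9 to 48.9 in the other L libraries. Its muscle fibre markers summed to 39736 CPM against 84285 to 128151 in the other 7. The same library was the highest of L for CSF1R at 20.3 CPM, and for TLR2, TLR9, CCL2 and IL18. CSF1R, the receptor that macrophages need to survive, had medians of 6.01 CPM (L), 6.37 (DPL), 6.16 (LDPL) and 6.86 (DLDPL), and did not pass (log2 change -0.08 ± 0.29, adjusted p = 0.861). Without L replicate 2 its log2 change was 0.29 (adjusted p = 0.400). In DPL replicate 16, which had the highest TLR9 and TLR2 values of its group, the macrophage sum was also the highest, at 105 CPM. LDPL replicate 24, with the highest sum of its group at 113 CPM, had the lowest TLR9 value there, at 0.343 CPM. Its TLR2 value was below only that of LDPL replicate 14. L replicate 2, at 163 CPM, had 1.51 CPM of TLR9 and 2.21 of TLR2. Without L replicate 2 the members called were 24 in DPL, 18 in LDPL and 16 in DLDPL against L, beside 37.2%, 28.3% and 21.8% of all genes.

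**Figure D5:**
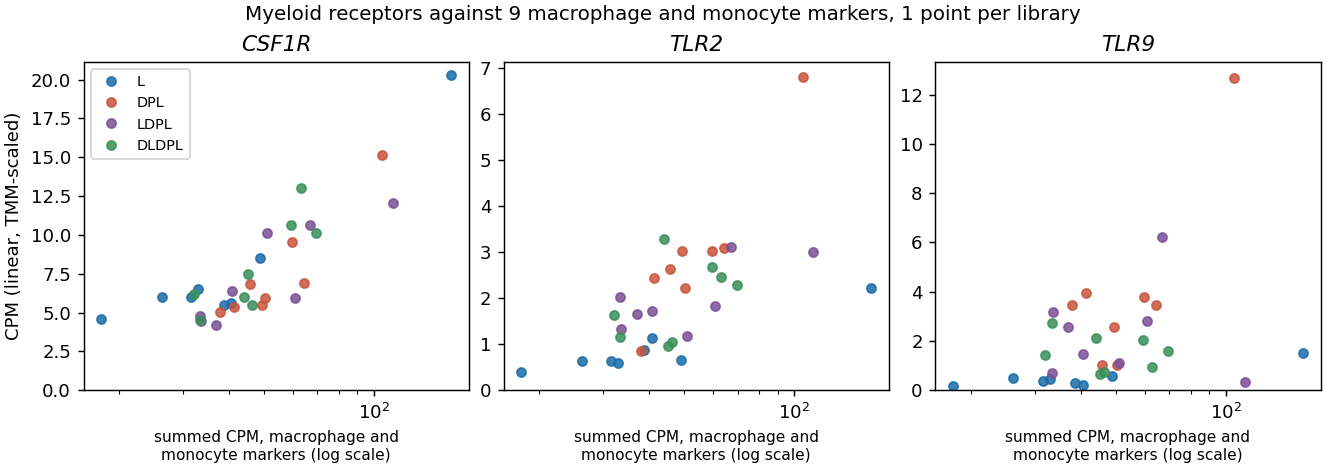
CPM of 3 receptors (linear vertical axes) against the summed CPM of 9 macrophage and monocyte markers (log horizontal axis), 1 point per library coloured by breed group. The L library at 163 has the highest CSF1R value, at 20.3 CPM, and TLR2 and TLR9 are highest in the DPL library at 105.

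Of 11 tested T and NK cell markers 4 were lower in DPL, 2 in LDPL and 5 in DLDPL against L, where 18.9%, 14.7% and 10.3% of all genes were lower, and no call was higher. Without L replicate 2 the counts fell to 1, 1 and 2. Summed levels were 6.39 to 41.5 CPM for L, 5.38 to 22.2 for DPL, 5.88 to 17.1 for LDPL and 3.80 to 9.94 for DLDPL, and the L maximum was replicate 2, with the other 7 L libraries at 6.39 to 16.8. The LDPL count was also 1 without LDPL replicate 5, 8, 9 or 15, and the DLDPL count 3 without DLDPL replicate 6 or 28. CD4 and CD8A, which mark the main T cell classes, had log2 changes of -1.53 and -1.39 in DPL, or -1.27 and -0.97 (adjusted p of 0.0227 and 0.0654) without L replicate 2, and GZMA, of killer cells, was at 0 in all L and DPL libraries. Neutrophil markers summed to 0.827 to 2.13 CPM for L, 0.867 to 2.82 for DPL, 0.111 to 3.35 for LDPL and 0.879 to 3.70 for DLDPL. The neutrophil granule genes MPO and ELANE were at 0 in all DPL libraries and reached at most 0.13 CPM elsewhere, and S100A8 reached at most 0.7625 CPM. Only 1 neutrophil marker was tested, and it was not called against L (log2 changes 0.38 in DPL, 0.33 in LDPL and 0.88 in DLDPL). It was called higher in DLDPL without L replicate 2 or 9, LDPL replicate 9 or DLDPL replicate 20 or 32. Of 6 fibroblast markers 3 were lower in DPL, 3 in LDPL and 0 in DLDPL against L, with COL3A1 at a log2 change of -2.16 in DPL. The count lower in LDPL against L was 1 without L replicate 2 or 5 or LDPL replicate 4, 8 or 9. Compared with DPL, 2 of the 6 were higher in DLDPL and 1 in LDPL, where 1.98% and 1.29% of all genes were higher. Endothelial markers were lower in 3, 3 and 1 of 8, and satellite cell markers in 3, 1 and 2 of 5, in DPL, LDPL and DLDPL. With a library left out the endothelial count in LDPL was 1 (without L replicate 1), that in DLDPL was 0 (without L replicate 5, 9 or 10 or DLDPL replicate 20 or 28), and the satellite cell count in LDPL was 2 (without L replicate 4 or LDPL replicate 9, 14 or 24). Of 8 smooth muscle and pericyte markers 3 were higher and 3 lower in DPL, 2 and 1 in LDPL (1 higher without LDPL replicate 4) and 3 and 1 in DLDPL (0 lower without L replicate 9 or DLDPL replicate 28 or 32). Of the 4 muscle fibre markers 2 were lower in DPL and 0 in LDPL and DLDPL, and without L replicate 2 there were 2 in each. The DLDPL count was 1 without L replicate 9, DPL replicate 7 or 19, LDPL replicate 8 or DLDPL replicate 20 or 32. The part of these cell types in the member results was not tested.

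All 3 tested SOCS genes are feedback regulators or adaptors of the family. SOCS7 (ENSSSCG00000018057) ranged from 5.60 to 9.87 CPM in L (median 7.96), 3.54 to 6.41 in DPL (median 5.02), 3.30 to 7.34 in LDPL (median 4.88) and 3.11 to 5.74 in DLDPL (median 4.61). In LDPL and in DLDPL 7 of 8 libraries were below all L libraries, and in DPL 5 were. It was lower in DPL (log2 change -0.65 ± 0.16, adjusted p = 0.00132), LDPL (log2 change -0.69 ± 0.16, adjusted p = 0.00113) and DLDPL (log2 change -0.81 ± 0.16, adjusted p = 0.000303). SOCS1, a strong inhibitor of Janus kinases, was higher in DPL at 0.984 ± 0.686 CPM against 0.393 ± 0.343 in L (SD, log2 change 1.27 ± 0.49, adjusted p = 0.0403). The SOCS1 call was lost without L replicate 4, 5, 7, 8, 9 or 10 or DPL replicate 16 or 21 (adjusted p of 0.0541 to 0.131), and with limma at both pseudocounts (0.0595 and 0.0986). SOCS5, the most abundant of the 3, did not pass in DPL (log2 change 0.25 ± 0.12, adjusted p = 0.0906). It was called higher there without L replicate 2 (adjusted p = 0.0402) or DPL replicate 23 (0.00434), and with voom (0.0224).

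Genes of the routes by which these receptors signal were counted in the same way for DPL against L, where 19.1% of all genes were higher and 18.9% lower. In the JAK-STAT list 7 of 18 tested genes were higher and 2 lower, and the median gene changed by 0.14 on the log2 scale beside -0.02 over all genes. PIM1, a kinase induced by STAT factors, was higher (log2 change 1.98 ± 0.26, adjusted p = 4.39e-07), as were the repressor BCL6 (log2 change 1.17 ± 0.19, adjusted p = 9.63e-06) and PIAS1, a SUMO ligase (log2 change 0.57 ± 0.11, adjusted p = 0.00017), whereas the Janus kinase TYK2 was lower (log2 change -0.93 ± 0.12, adjusted p = 3.58e-07). In the NF-kappaB list 11 of 25 were higher and 2 lower (4 lower without L replicate 7), with a median of 0.31. The smallest adjusted p was that of the inducible regulator NFKBIZ, which was higher (log2 change 2.30 ± 0.29, adjusted p = 1.95e-07), and the inhibitor NFKBIA, the factor REL and the kinase IKBKB were higher by 0.82, 0.98 and 0.81 on the log2 scale. Of 15 genes of Toll-like and interleukin-1 receptor signalling 5 were called, all higher, with a median of 0.27, and 1 was called lower without L replicate 2 or DPL replicate 7 or 26. They included the kinase IRAK2 (log2 change 1.96 ± 0.33, adjusted p = 2.33e-05), the ligase PELI1, the kinase IRAK1 and the adaptor TICAM1, the latter 3 with log2 changes of 0.83, 0.49 and 1.33.

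In LDPL against L, beside 14.9% of all genes higher and 14.7% lower, the same lists had 5 higher and 3 lower for JAK-STAT, 10 and 3 for NF-kappaB, and 3 called for Toll-like signalling, all higher. In DLDPL against L, beside 11.6% and 10.3%, they had 4 higher and 4 lower, 6 higher and 1 lower, and 2 called, both higher. The DLDPL counts moved with single libraries: without DLDPL replicate 28 the higher calls were 2 for JAK-STAT and 3 for NF-kappaB, without L replicate 1 those for NF-kappaB were 3, and without L replicate 2 those for Toll-like signalling were 4. The lower calls for JAK-STAT were 2 without L replicate 1, 2 or 10, DLDPL replicate 6, 25, 27 or 29 or LDPL replicate 8 or 14, and those for NF-kappaB were 2 without L replicate 5, 7 or 10 or DLDPL replicate 18 or 25. Cytokine genes that the symbol rule leaves out had 5 higher and 4 lower of 21 in DPL against L. CLCF1, an interleukin-6 type cytokine, was higher (log2 change 2.65 ± 0.37, adjusted p = 1.36e-06), as was the scavenging chemokine receptor ACKR3 (log2 change 1.21 ± 0.21, adjusted p = 3.65e-05). The fractalkine receptor CX3CR1 of monocytes was lower, at 0.244 ± 0.227 CPM against 1.47 ± 1.75 in L (SD, log2 change -2.58 ± 0.59, adjusted p = 0.000818; log2 change -1.81 without L replicate 2, adjusted p = 0.00728), and so was CTF1, which encodes cardiotrophin (log2 change -1.11 ± 0.26, adjusted p = 0.00118). In LDPL against L 2 of these genes were higher and 6 lower (4 or 5 higher without L replicate 2, LDPL replicate 9 or 15 or DPL replicate 16), and in DLDPL against L 2 were higher and 5 lower (1 higher without DLDPL replicate 28).

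The 46 untested members were under the low-count filter. TLR8 had the most reads of them, 236 over the 32 libraries, and 12 of the 97 members were listed in fewer than 8 libraries. A few of these members, named after their values were seen, had reads concentrated in some groups. IL6 had 2 reads over all L libraries, 68 over DPL, 18 over LDPL and 62 over DLDPL, so that the pooled ratio to L was 38.5 in DPL (95% exact binomial interval 10.3 to 324), 10.2 in LDPL (2.43 to 90.3) and 33.5 in DLDPL (8.89 to 283), where the intervals cover counting error only. Of the 62 reads in DLDPL 36 came from replicate 28 and 26 from the others. CSF3, the granulocyte growth factor, had 11 reads over L, 62 over DPL, 26 over LDPL and 28 over DLDPL. In the opposite direction TLR8 had 150 reads in L against 15, 36 and 35, and the T cell chemokine receptor CXCR3 had 102 in L against 19, 29 and 19. L replicate 2 alone held 87 of the TLR8 reads and 43 of the CXCR3 reads of L, which leaves 63 and 59. With the filter dropped edgeR called 27 of the 97 members in DPL against L, beside 27.9% of all genes, among them IL6 (adjusted p = 0.000291), TLR8 (0.00451), CXCR3 (0.0165) and CSF3 (0.033). These fits were repeated without each library that held the most reads of 1 of these 4 genes in its group. The CXCR3 call was then lost without L replicate 2 (adjusted p = 0.067) and the CSF3 call without L replicate 2 or 5 or DPL replicate 16 or 23 (0.0568 to 0.108), while the adjusted p in DPL was at most 0.0397 for TLR8 and 0.000884 for IL6. With all libraries, TLR8 did not pass in LDPL or DLDPL against L (adjusted p of 0.0788 and 0.0811). It was called in LDPL without LDPL replicate 5 (0.0226) and in DLDPL without DLDPL replicate 18 (0.0353). Without L replicate 2 its log2 changes there were -0.85 and -0.91 (0.403 and 0.398). CSF3 did not pass in LDPL or DLDPL (0.386 and 0.365), nor CXCR3 in LDPL (0.0845).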

How the data were processed

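RNA-seq libraries of the longissimus dorsi of 32 pigs, 8 in each of 4 breed groups, were analysed from 1 deposited table per library. Per the labels' protocols the muscle had been frozen, and the library kit keeps no strand, so overlapping genes on both strands share reads. Bowtie 0.12.2, Cufflinks and mm8, a mouse build, stand in the submitters' processing notes, while the gene identifiers are those of pig. As to the pig build and annotation, these are not given in the sources used, and no coordinates are printed.

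The authors deposited, per the file headers, the number of uniquely mapped reads of each gene, which is a raw count. The deposited RPKM values are scaled to those totals and to the listed gene length, and the deposited coverage column is the percent of that length with reads. A gene not listed in a table was given a count of 0. Symbols were found for 10836 of 17930 identifiers (60.4%), and identifiers without one held 14.5% of reads, so some family genes, LIF and SOCS3 among them, are not analysed here. Sequences of members are not printed.

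In edgeR 4.0.16, filterByExpr (about 0.394 CPM in at least 8 libraries, from a minimum count of 10 and a minimum total of 15) kept 12821 genes with 99.97% of reads. After TMM scaling, a quasi-likelihood model with 4 group means was fitted to all libraries (common biological coefficient of variation 0.285). The 6 pairs and the 4 groups together were tested two-sided, with Benjamini-Hochberg adjustment over all 12821 genes and calls at an adjusted p under 0.05. The procedure was also run on simulated data, and the outcome is not given here. Levels are CPM on TMM-adjusted library sizes. Ratios of pooled reads carry 95% exact binomial intervals.

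Named members are those called in at least 1 pair and the member with the highest mean RPKM of each role group, except 1 that is not reported here. Ranges by group with each library's standing are given for the 12 with the smallest 4-group p. From each pathway list, up to 4 genes with the smallest adjusted p in DPL against L are named, and a few further genes are marked as chosen after their values were seen or serve as markers. The members and lists were chosen with earlier results of these data known. The plan allowed for tables without counts, in which case limma on log2(RPKM + 1) would have been the test.

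Alternatives were RLE scaling, no filter, a CPM filter, limma 3.58.1 on log2 RPKM with pseudocounts 1 and 0.1, voom with sample weights, DESeq2 1.42.0, fits of 2 groups only, leaving out each library, a replicate block, and, chosen after seeing the data, leaving out 13 mitochondrial genes, and, for 4 scarce members, no filter together with a library left out. The gene lists were also counted with each library left out. No pair of libraries of 1 group agreed within sampling noise (smallest chi-square per degree of freedom 31.3). Beyond the labels nothing states that libraries came from separate animals, in which case p-values would measure only the spread between these samples. L and LDPL share 5 replicate numbers, and their libraries with the same number did not deviate together.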

Additional observations from a re-analysis of the deposited data

Results flagged for a closer look

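Dixon's criterion was applied to 112 sets of 8 library values (28 members in 4 groups), on log2(CPM + 0.1). By it 9 values lay far from the rest of their set, where chance alone flags about 1 set in 20. L replicate 2 accounted for 2 of them: CSF1R at 20.3 CPM against 4.57 to 8.54 in the other L libraries, and SOCS5 at 10.3 against 6.74 to 8.03. The same library had the highest summed macrophage and monocyte markers of L, at 163 CPM.

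DLDPL replicate 18 had 1.01 CPM of CXCL2 against 6.31 to 18.5 in the other DLDPL libraries, and 0 of CXCL8 against 0.345 to 1.25. Its summed stress and immediate early genes were at 178 CPM against 980 to 2805. DPL replicate 23 was low for IL6ST, at 20.5 CPM against 34.2 to 50.1, and for SOCS5, at 4.93 against 8.41 to 11.0.

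TNFRSF11B was low in L replicate 1, at 0.214 CPM against 2.41 to 5.86, and in DLDPL replicate 27, at 0.278 against 1.33 to 3.84. TLR3 was low in LDPL replicate 10, at 0.243 CPM against 1.07 to 1.89.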

How the results depend on the processing

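For the 58 log2 changes of called or named members, 512 values were recomputed under other settings, of which 477 kept their direction and their side of the threshold, 30 fell below it, 4 rose above it and 1 reversed. With each of the 32 libraries left out in turn, 1771 of 1856 values did so, 74 fell below, 10 rose above and 1 reversed. The counts of called members that moved by over 1.5 times were those of LDPL against DPL, from 2 to 0 with limma on log2(RPKM + 1), to 1 with voom and to between 1 and 3 with a library left out, of DLDPL against DPL, from 3 to 1 with voom, and over the 4 groups, from 16 to 26 with voom. The cause was not tested. In LDPL against DPL the 1 call with voom was lower, whereas the 2 calls by edgeR were both higher and were lost with voom. With libraries left out, the 7 counts ranged from 18 to 24, 13 to 18 and 10 to 16 against L in DPL, LDPL and DLDPL, 2 to 4 in DLDPL against DPL, 0 to 0 in DLDPL against LDPL and 15 to 20 over the 4 groups. The counts under these settings are given without the share of all genes and are no result about the family. CSF1R in DPL against L, at a log2 change of -0.08, was at 0.14 with voom and ran from -0.30 without DPL replicate 16 to 0.29 without L replicate 2, and it passed the threshold in none of these.

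A replicate block was fitted on the 5 numbers that L and LDPL share. It gave 13 called members against 15 without the block on the same 10 libraries. Correlations of the paired deviations ran from -0.10 to 0.07, so libraries with the same number did not deviate together. Whether they share more than a number was not tested. The shares of all genes in these fits are not given here, so both counts are no result about the family. Depth limits the family: 46 members were under the count filter, and without that filter edgeR called 8 of them in DPL against L and 38 not. Over all 17930 genes that fit called 2555 higher and 2440 lower.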

Other observations

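With no filter on low counts, edgeR also called IL6 in DLDPL against L (adjusted p = 0.00123) and in LDPL against L (adjusted p = 0.0452), and CXCR3 in DLDPL against L (adjusted p = 0.0256). The call in LDPL was lost without L replicate 1 or 2 or LDPL replicate 4, 9 or 24 (adjusted p of 0.055 to 0.105), and that of CXCR3 without L replicate 2 (adjusted p = 0.094). These genes were named after their values were seen.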
